A study of Mus musculus with 6 samples.

Results

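The genes described here encode collagens, laminins, integrins, matrix proteases, their inhibitors and related matrix proteins, and they were chosen by the authors' own comparison of MSC treated with sound trauma cochleae. A gene is a member when it stood in the deposited list of up-regulated or of down-regulated genes and its symbol begins with one of the matrix family names (for example Col, Lam, Itg, Adam, Mmp, Timp, Fbln, Sparc, Ltbp or Serpin). The rule kept 53 of the 3878 listed genes, out of 41096 genes in the series, with 36 from the up-regulated list and 17 from the down-regulated list. Because those lists were selected on the same contrast in the same experiment, the differences below describe the members and are not tests of them.

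RNA from the left cochlea of C57BL/6 mice (C56Bl/6 in the labels), female and about a month old per the methods, was sequenced in 2 groups of 3 animals, called sound trauma (specimens 6, 8 and 10) and MSC treated (specimens 13, 18 and 20), while the methods describe more animals per condition than the 3 analysed here. All 6 animals were exposed to 16 kHz noise in that ear. The MSC treated animals then received human mesenchymal stromal cells, cultured from umbilical cord tissue (Wharton's jelly), into the posterior semicircular canal, and the controls are labelled as noise trauma alone while the methods describe an injection of artificial perilymph. RNA was taken 2 days after treatment according to the labels, whereas the methods give a longer interval, and no unexposed cochlea was analysed here, so an effect of noise itself cannot be read from these libraries.

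Collagens and laminins form the fibrils and basement membranes that hold cells in place, and integrins are the cell surface receptors that bind them. Matrix metalloproteinases (MMPs) and the ADAM and ADAMTS families cut matrix and membrane proteins, while tissue inhibitors of metalloproteinases (TIMPs) and serpins restrain proteases. In the cochlea, a collagen network gives the tectorial and basilar membranes their stiffness, collagen IV lines the basement membranes of the spiral limbus, the organ of Corti and the vessels of the stria vascularis, and the bony capsule is rich in collagen I.

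The promoter windows of 4 genes are shown because each belongs to a gene or gene pair on which the account below turns. These are the most abundant collagen among the members (Col1a2), the collagen IV pair Col4a4 and Col4a3, and the inhibitors Timp1 and Timp4. The 2 inhibitors stood in opposite lists. Each window runs 5′ to 3′ from 250 bases before to 50 bases after a RefSeq transcription start in GRCm38.p6, a build that differs from the authors' C57BL/6NJ genome. Capitals mark CCAAT and GC box (GGGCGG) matches on either strand, and no matches overlap in these windows.
Col1a2, chr6:4505368-4505667, plus strand: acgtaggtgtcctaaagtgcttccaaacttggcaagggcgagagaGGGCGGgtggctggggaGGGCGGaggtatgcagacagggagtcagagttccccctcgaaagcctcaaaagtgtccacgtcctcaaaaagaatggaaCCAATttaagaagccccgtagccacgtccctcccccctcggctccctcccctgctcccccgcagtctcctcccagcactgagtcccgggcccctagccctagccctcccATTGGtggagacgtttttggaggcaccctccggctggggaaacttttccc
Col4a4, chr1:82586800-82587099, minus strand: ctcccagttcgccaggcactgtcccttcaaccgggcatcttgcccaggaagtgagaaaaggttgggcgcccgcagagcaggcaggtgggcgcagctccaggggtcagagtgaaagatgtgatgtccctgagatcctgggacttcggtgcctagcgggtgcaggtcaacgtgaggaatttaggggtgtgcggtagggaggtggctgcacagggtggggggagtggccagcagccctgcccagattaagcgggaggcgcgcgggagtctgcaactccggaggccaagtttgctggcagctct
Timp1, chrX:20869916-20870215, plus strand: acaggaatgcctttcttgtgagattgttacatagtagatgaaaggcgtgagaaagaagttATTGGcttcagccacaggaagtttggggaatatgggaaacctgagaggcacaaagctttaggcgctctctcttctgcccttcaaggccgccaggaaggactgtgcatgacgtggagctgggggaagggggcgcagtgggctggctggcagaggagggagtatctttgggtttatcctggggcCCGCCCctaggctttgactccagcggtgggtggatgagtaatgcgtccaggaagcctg
Timp4, chr6:115252156-115252455, minus strand: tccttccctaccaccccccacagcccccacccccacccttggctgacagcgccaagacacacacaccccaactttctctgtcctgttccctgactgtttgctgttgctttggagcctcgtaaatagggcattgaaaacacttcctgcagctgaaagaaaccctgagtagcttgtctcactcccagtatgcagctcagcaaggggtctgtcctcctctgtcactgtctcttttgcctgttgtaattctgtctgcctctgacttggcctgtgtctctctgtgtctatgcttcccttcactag
The Col1a2 window held 2 CCAAT and 2 GC box matches and the Timp1 window 1 of each, while the Col4a4 and Timp4 windows held neither. The RefSeq start of Col4a3 lies inside the Col4a4 window on the opposite strand, so these neighbours are arranged head to head. RefSeq windows were found for 38 of the 53 members (42 windows). A GC box was present in 54.8% of the member windows and 35.7% of all 32851 windows, CCAAT in 23.8% and 37.4%, the letters TATAAA in 11.9% and 13.6%, and the AP-1 letters TGANTCA in 9.52% and 7.81%, all searched on both strands and allowed to overlap. These shares are descriptions of letters and not of factor binding.

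Values are scaled counts, which are reads per gene multiplied by 1 factor per library, and values of one gene are always given in the order of specimens 6, 8 and 10 for sound trauma and 13, 18 and 20 for MSC treated. Reads on genes ranged from 9170390 to 11030863 per library. Differences are MSC treated minus sound trauma on the log2(scaled count + 1) scale, from a limma fit over 15970 genes, with a standard error (SE). For genes given in every library, LOO is the lowest to highest difference when any 1 of the 6 libraries was left out. Each group has 3 animals, and the spread measured is that between these 3. In bulk tissue, fewer cells of a type and less RNA per cell cannot be told apart.

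Per kilobase of exon, the member levels spanned more than 3 orders of magnitude in the mean of all 6 libraries. Sparc, a collagen-binding matricellular protein, was highest at 6841 scaled counts per kb, followed by Col1a2 at 6174, Sparcl1 at 2921 and the proteoglycan gene Bgn at 1683. Lowest were Adamts16 at 2.42 and the non-fibrillar collagen Col19a1 at 2.14. Genes of the up-regulated list fill most of the upper part of this order, with Sparcl1 as the down-list gene of highest level.

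**Figure D1:**
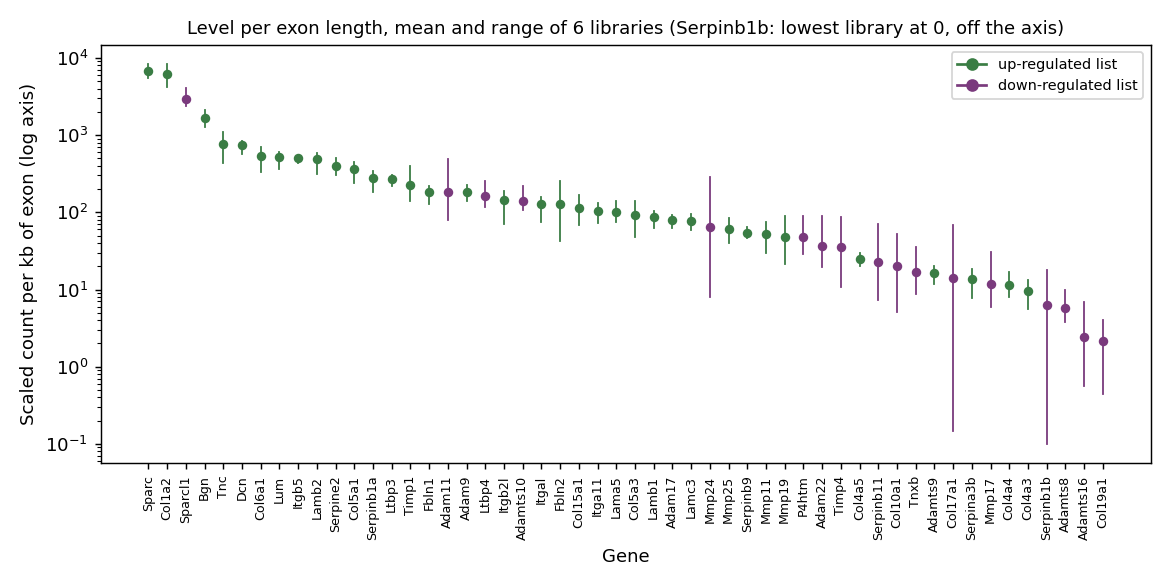
Scaled count per kilobase of exon (log axis) for 52 of the matrix genes, ordered by mean; points are means and bars the range over all 6 libraries, green for the up-regulated and purple for the down-regulated list. Sparc (6841) and Col1a2 (6174) stand at the top, Col19a1 (2.14) at the bottom, and the bars are longest for Col17a1 and Serpinb1b, whose lowest library is at 0 and runs off the axis.

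Most matrix genes were on the up-list side. Members in the up-regulated list made up 67.9% of the 53, compared with 29.3% of all 3878 listed genes. The laminin chains and all 4 integrin chains came from the up-regulated list, as did 8 of the 11 collagens and 7 of the 9 glycoproteins, proteoglycans and matricellular proteins. The ADAM and ADAMTS proteases were divided, with 3 in the up-regulated and 5 in the down-regulated list, and so were the MMPs with 3 and 2, the TIMPs with 1 and 1 and the serpins with 4 and 2.

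Of the 53 members, 52 passed the filter on low reads, the exception being Serpinb1b. In limma, 0 members passed an adjusted p of 0.05, as did 0% of all 15970 tested genes, and edgeR, DESeq2 and limma-voom also called 0 members and 0 genes. At an unadjusted p under 0.05, limma found 1 member higher in MSC treated animals (Serpinb1a, background 1.68% of tested genes) and 1 lower (Col19a1, background 0.67%). The groups did not overlap for 7 higher members (background 4.25%) and for 1 lower member (background 2.92%). The rule used this contrast, so nothing is read from those counts.

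For the 36 up-list genes the differences were small, with a median of 0.32 and a range from 0.16 to 0.73. For the 16 tested down-list genes the median was -0.51, with a range from -1.68 to 0.31, and it was -0.85 in edgeR and in DESeq2. The median over all tested genes was 0.0014. The up-list median was 0.21 without specimen 8 and 0.47 without specimen 10, and the down-list median was -0.09 without specimen 8 and -0.94 without specimen 10. With specimen 10 as the lone control, the medians were 0.02 and -0.03.

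The sound trauma libraries differed among themselves. Set against the MSC treated mean, the up-list members had median differences of -0.39 in specimen 6, -0.52 in specimen 8 and -0.02 in specimen 10. Specimen 8 was below the range of the MSC treated libraries for 35 of the 36 genes and specimen 6 for 26, whereas specimen 10 was below it for 10, within it for 17 and above it for 9. Among all 1137 up-regulated genes, specimen 8 was below that range for 81.4%, specimen 6 for 89.3% and specimen 10 for 27.5%, so specimen 10 stood apart from specimens 6 and 8 over the list as a whole and not for the matrix genes alone. The 17 down-list members had median differences of 0.33, 1.85 and 0.06 in specimens 6, 8 and 10, and specimen 8 was the highest of all 6 libraries for 14 of them. Specimen 8 was above the MSC treated range for 88.2% of these members and for 80.7% of all 2741 down-regulated genes. Specimen 6 was above it for 58.8% of these members and for 77.4% of that list. Over the whole list, the median differences were 0.60, 1.10 and -0.02 in specimens 6, 8 and 10. High values in specimen 8 were thus common over the list, with a larger median among the members.

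**Figure D2:**
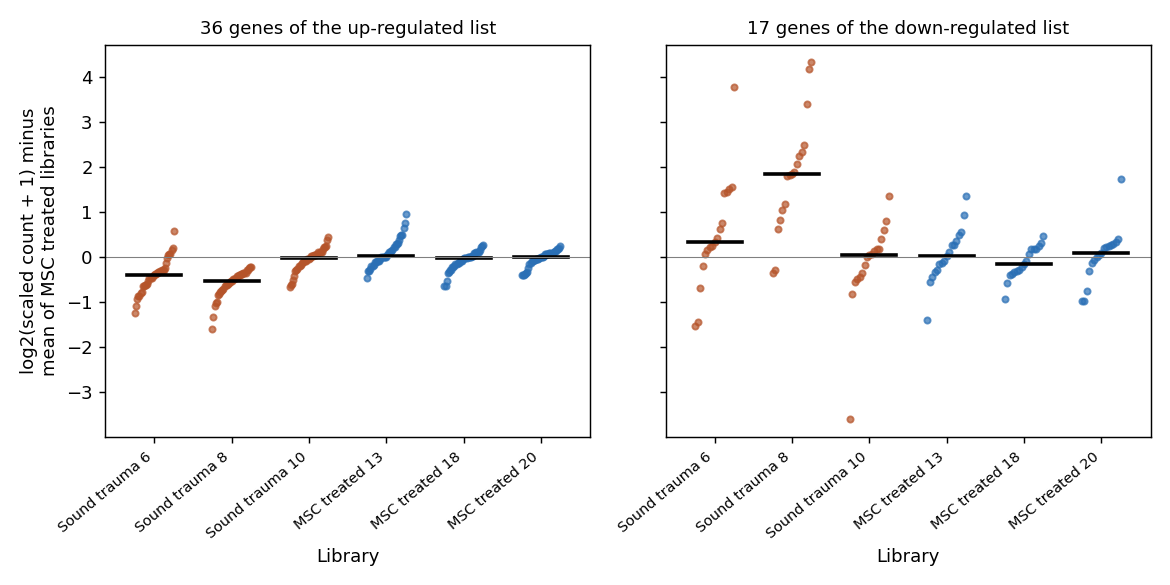
Difference of each library from the MSC treated mean, in log2(scaled count + 1), for the up-list (left) and down-list (right) matrix genes; each point is a gene and each bar the median. Bars for sound trauma specimens 6, 8 and 10 lie at -0.39, -0.52 and -0.02 on the left and at 0.33, 1.85 and 0.06 on the right.

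Other tissues were represented unequally in the same libraries. Marker genes could be looked up only where the 2 lists give a symbol, so each marker list covers genes that were themselves selected on this contrast. The named genes of each marker list were all from the up-regulated or all from the down-regulated list. A library order shared with members of that same list can follow from this selection. Summed over 8 of 10 neuron and cerebellum markers, sound trauma libraries held between 4317 and 35640 scaled counts (35640 in specimen 8) and MSC treated libraries between 4477 and 6921. For 8 of 9 skeletal muscle markers the sums ranged from 20798 to 486611 in sound trauma, the highest in specimen 6, and from 40384 to 260840 in MSC treated animals, the highest in specimen 13. For 6 of 8 keratinized epithelium markers they ranged from 37.5 to 1581 (specimen 8) and from 38.8 to 210 (specimen 13, with Krt14 alone at 183). None of the 8 neuronal and none of the 8 muscle markers was at 0 in any library. Of the epithelial markers, Krt1 was at 0 reads in specimens 10 and 13, Klk7 in specimens 6, 13 and 18, and Krtdap in specimens 6 and 20.

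Choroid plexus markers (4 of 4, with Ttr as the most abundant) summed to 7868 in specimen 6 and 5152 in specimen 8 but to between 179 and 266 in the other 4 libraries. Pituitary markers (4 of 4) summed to 295521 in specimen 6 and to between 1242 and 22155 elsewhere. Pou1f1 of this list was at 0 in specimens 10 and 18. The 5 cochlear markers with a symbol, of 14 looked for (Otoa, Otog, Pou4f3, Otof and Lhfpl5), were detected in every library, with sums of 1712, 1857 and 4286 in sound trauma and 2936, 3699 and 3094 in MSC treated animals. In these sums, specimens 6 and 8 were lowest for the cochlear markers and highest for the choroid plexus markers. The former all came from the up-regulated list and the latter all from the down-regulated list, so nothing is read from this order. Lhfpl5 differed from the cochlear sum, with specimen 6 at 27.8 above specimens 10 (19.7) and 13 (27.0). Bone markers (2 of 13, Phex and Mepe) ran from 1769 to 3399 and from 2332 to 3215, fibroblast Pdgfra (1 of 8) from 933 to 1538 and from 1377 to 1537, and leukocyte markers (5 of 10) from 9167 to 17618 and from 13615 to 15981, with specimens 6 and 8 again below the other 4 libraries in each. Astrocyte and oligodendrocyte markers (5 of 5) ran from 10392 to 30136 and from 9037 to 21680. None of the 6 endothelial and mural cell markers had a symbol in the lists. The part of these tissues in the matrix differences was not tested.

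**Figure D3:**
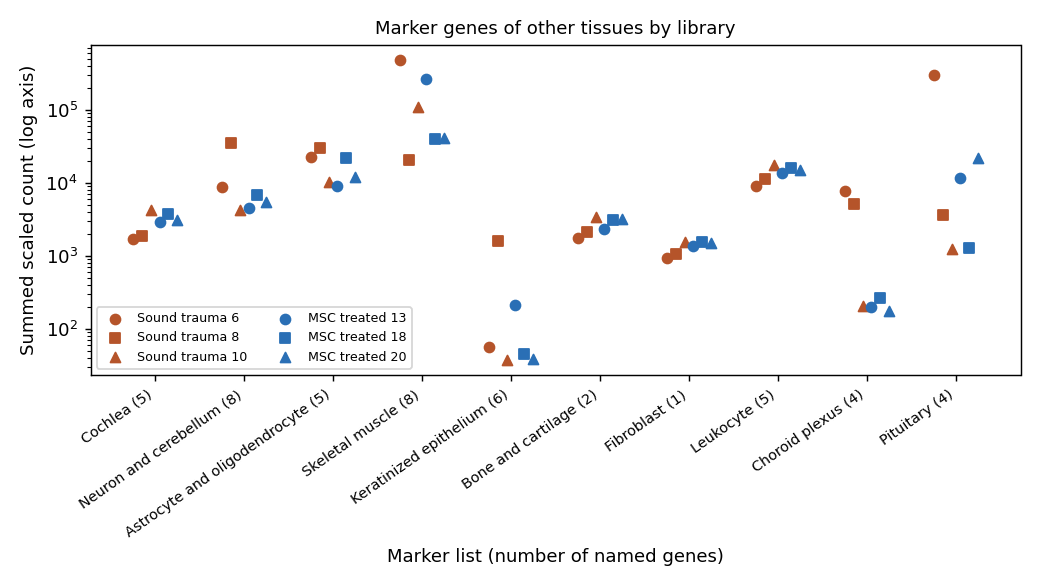
Summed scaled counts (log axis) of marker genes for each tissue or cell type, one symbol per library, with the number of named genes in parentheses. Specimen 8 is highest for neuron and keratinized epithelium (35640 and 1581), specimen 6 for skeletal muscle and pituitary (486611 and 295521), and both are lowest for the cochlear markers (1712 and 1857).

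Fibrillar collagens make up the tensile fibrils of connective tissue and bone. Col1a2, a chain of collagen I, was present at 52038, 62243 and 103767 scaled counts in sound trauma and at 65133, 85171 and 91941 in MSC treated animals. Its group means were 72683 ± 27399 and 80748 ± 13941 (SD, n = 3), and the fitted difference was 0.20 (SE 0.52, LOO -0.01 to 0.49). Specimen 10 had the highest level of all 6 libraries, the groups overlapped, and the difference was -0.01 without specimen 6. Col5a1, which nucleates collagen I fibrils and limits their diameter, had 2676, 2024 and 3826 in sound trauma and 3647, 2911 and 3531 in MSC treated animals, a difference of 0.28 (SE 0.25, LOO 0.06 to 0.52). Here too specimen 10 was the highest library, and the difference was 0.06 without specimen 8 and 0.52 without specimen 10.

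Col5a3, another collagen V chain, had 778, 326 and 450 in sound trauma and 966, 444 and 768 in MSC treated animals, a difference of 0.51 (SE 0.40, LOO 0.22 to 0.85). Specimens 6 and 13, the highest of their groups, are also the libraries with the most skeletal muscle marker counts of each group. The part of muscle in this was not tested. Col19a1, a basement membrane zone collagen expressed by neurons and developing muscle, was near the detection limit with 19.7, 27.7 and 18.8 in sound trauma and 10.4, 3.06 and 8.74 in MSC treated animals. It was the only member whose groups did not overlap in the lower direction, with a difference of -1.57 (SE 0.49, LOO -1.85 to -1.11). The difference was -0.90 with a pseudocount of 10. It rests on 17, 29 and 21 reads against 10, 3 and 9.

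Collagen IV is the network of basement membranes, and the chains encoded by Col4a3, Col4a4 and Col4a5 join in a single heterotrimer whose loss causes hearing loss and kidney disease in Alport syndrome. Col4a3 had 92.7, 55.5 and 79.5 scaled counts in sound trauma and 133, 111 and 96.1 in MSC treated animals, a difference of 0.59 (SE 0.26, LOO 0.39 to 0.75), and the groups did not overlap. Col4a5 had 137, 137 and 170 in sound trauma and 175, 200 and 177 in MSC treated animals, a difference of 0.32 (SE 0.17, LOO 0.26 to 0.42), also without overlap. The gap between the closest libraries was small for both genes, 92.7 against 96.1 and 170 against 175. Col4a4, which shares the head-to-head start region with Col4a3, ranged from 85.1 to 126 and from 106 to 180, with specimens 10 and 20 overlapping, and its difference was 0.47 (SE 0.27). The order of the MSC treated libraries was specimen 13, then 18, then 20 for Col4a3 and for Col4a4, and specimen 18 was highest for Col4a5.

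Col6a1, a chain of the beaded filament collagen VI, had 2628, 1465 and 2575 in sound trauma and 3087, 2155 and 2360 in MSC treated animals, a difference of 0.22 (SE 0.27, LOO -0.06 to 0.37). Only specimen 8 was below the MSC treated range, and the difference was -0.06 without it. Col15a1, which links basement membranes to the stroma around vessels and muscle, had 751, 429 and 746 in sound trauma and 1069, 527 and 759 in MSC treated animals, a difference of 0.28 (SE 0.33, LOO 0.01 to 0.53) that was 0.01 without specimen 8. Specimen 8 was the lowest library for both genes and specimen 13 the highest, and both groups overlapped.

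Both down-list collagens of this class were highest in specimen 8. Col17a1, the transmembrane collagen of epidermal hemidesmosomes, had 6.95, 413 and 0.893 in sound trauma and 57.1, 16.3 and 10.7 in MSC treated animals. Specimen 8 held 7.23 times the level of the next library, and the other sound trauma libraries lay below all 3 MSC treated ones. The sound trauma mean of 140 ± 236 exceeded the MSC treated mean of 28.1 ± 25.3 (SD, n = 3), yet the fitted difference was 0.31 (SE 1.93, LOO -1.33 to 2.55), the opposite sign, and the sign was not stable. It was 2.55 without specimen 8, -0.30 without specimen 6, -1.33 without specimen 10, -0.37 without specimen 13 and -0.37 with a pseudocount of 10. On recovered reads, edgeR gave -2.33 and DESeq2 -2.32, while limma-voom kept the positive sign. Krt14 and the other keratinized epithelium markers were also highest in specimen 8, with specimen 13 next in their sum (1581 and 210), and their part in the Col17a1 level was not tested. In specimen 13 this sum was almost entirely Krt14, at 183, and the other 5 markers had between 0 and 19 reads each. Col10a1, the collagen of hypertrophic cartilage, ranged from 16.2 to 166 and from 37.4 to 52.1, with specimen 8 at 2.74 times the next library, and its difference was -0.26 (SE 0.78), 0.52 without specimen 8 and -1.12 without specimen 6.

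Laminins are the heterotrimers that organise basement membranes, and the chains described here came from the up-regulated list. Lama5 had 1036, 862 and 1121 scaled counts in sound trauma and 1608, 1301 and 1023 in MSC treated animals, a difference of 0.36 (SE 0.20, LOO 0.21 to 0.53). Lamb1 had 773, 628 and 923 in sound trauma and 1032, 812 and 1006 in MSC treated animals, a difference of 0.30 (SE 0.18, LOO 0.16 to 0.44). Lamb2, the beta chain of synaptic and vascular basement membranes, had 3277, 1889 and 3298 in sound trauma and 3525, 3113 and 2895 in MSC treated animals, a difference of 0.21 (SE 0.25, LOO -0.05 to 0.35). Specimen 8 was the lowest library for all 3 chains, the groups overlapped for each, and the Lamb2 difference was negative without specimen 8. Specimen 13 was the highest library for all 3. Lamc3, a gamma chain, ranged from 356 to 507 in sound trauma and from 453 to 579 in MSC treated animals, a difference of 0.37 (SE 0.19), and only specimens 10 and 13 overlapped.

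**Figure D4:**
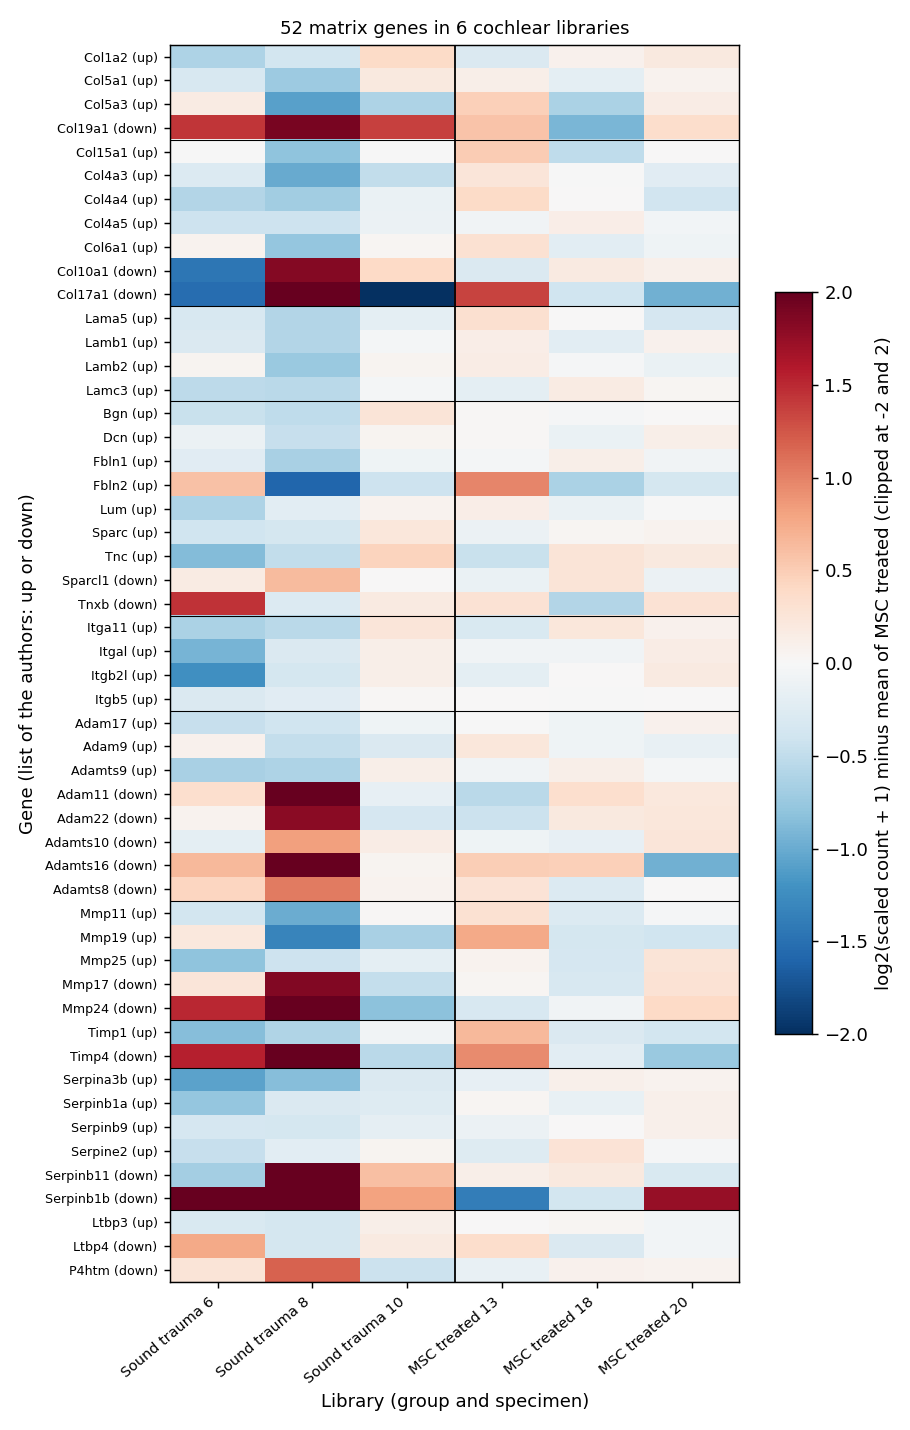
Difference of each library from the MSC treated mean in log2(scaled count + 1), clipped at -2 and 2, for 52 of the matrix genes grouped by role, with the authors' list in parentheses. Blue in specimens 6 and 8 marks most up-list genes, dark red in specimen 8 marks Adam11, Mmp24, Timp4 and Col17a1, and specimen 10 is pale in most rows.

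Sparc had 20554, 21381 and 31950 scaled counts in sound trauma and 25163, 27898 and 28542 in MSC treated animals, a difference of 0.17 (SE 0.30, LOO 0.06 to 0.37). Biglycan (Bgn), a small leucine-rich proteoglycan of bone and connective tissue, had 8000, 7661 and 13092 in sound trauma and 11059, 10778 and 10982 in MSC treated animals, a difference of 0.24 (SE 0.26, LOO 0.10 to 0.48). Specimen 10 was the highest of all 6 libraries for both, and the MSC treated values lay between it and the other sound trauma libraries. For Bgn the MSC treated SD was 145 around a mean of 10940, against 3043 around 9584 in sound trauma. Sparcl1, a Sparc relative secreted by astrocytes that promotes synapse formation, had 8634, 11863 and 7744 in sound trauma and 6993, 9176 and 7063 in MSC treated animals, a difference of -0.27 (SE 0.24, LOO -0.40 to -0.09). Specimen 8 was highest in sound trauma and specimen 18 in MSC treated animals, and these are also the highest libraries of each group for the astrocyte and oligodendrocyte markers (30136 and 21680), whose part was not tested.

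The fibulins bind elastic fibres and basement membranes. Fbln1 had 754, 565 and 837 in sound trauma and 858, 961 and 839 in MSC treated animals, a difference of 0.32 (SE 0.17, LOO 0.15 to 0.44), and its groups were separated only by the step from 837 to 839. Fbln2 had 1223, 271 and 611 in sound trauma and 1602, 529 and 644 in MSC treated animals, a difference of 0.48 (SE 0.64, LOO -0.08 to 1.005). Both groups spanned a wide range for Fbln2, the difference was -0.08 without specimen 8 and 1.005 without specimen 6, and specimens 6 and 13, with the most muscle marker counts of each group, were highest. Tenascin C (Tnc), a matrix protein of developing and injured tissue, ranged from 3430 to 8568 and from 4584 to 7473, with specimen 10 the highest library, and its difference of 0.30 (SE 0.38) was 0.02 without specimen 6 and 0.68 without specimen 10.

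Decorin (Dcn) and lumican (Lum), neighbouring genes on the same strand that encode collagen-binding proteoglycans, differed by 0.18 (SE 0.18) and 0.25 (SE 0.19). The Dcn difference was 0.04 without specimen 8 and 0.29 without specimen 10, and that of Lum was 0.07 without specimen 6 and 0.42 without specimen 10. Dcn ranged from 3305 to 4695 in sound trauma and from 4129 to 4931 in MSC treated animals, and Lum from 884 to 1423 and from 1240 to 1493. Their lowest libraries were not the same, specimen 8 for Dcn and specimen 6 for Lum. Tnxb, the tenascin of skin and muscle connective tissue and a down-list gene, ranged from 131 to 435 and from 106 to 195, with a difference of -0.45 (SE 0.48) that was 0.05 without specimen 6 and -0.81 without specimen 8.

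Integrin chains in the up-regulated list included those of leukocytes and of matrix-binding cells. Itgal, the alpha chain of the leukocyte integrin LFA-1, had 495, 771 and 1020 scaled counts in sound trauma and 899, 896 and 1042 in MSC treated animals, a difference of 0.37 (SE 0.26, LOO 0.09 to 0.61). Itgb2l, a relative of the leukocyte beta chain, had 302, 553 and 770 in sound trauma and 621, 711 and 806 in MSC treated animals, a difference of 0.49 (SE 0.34, LOO 0.12 to 0.79). Specimens 6 and 8 were below all MSC treated libraries for both genes and specimen 10 was within their range, and without specimen 6 the differences were 0.09 and 0.12. The leukocyte markers followed the same division, at 9167 and 11353 in specimens 6 and 8 and at 17618 in specimen 10, and their part was not tested. These markers and both integrin genes all came from the up-regulated list. Over that whole list, specimens 6 and 8 were below the MSC treated range for 89.3% and 81.4% of genes. Itgb5, a vitronectin receptor chain, had 1544, 1604 and 1916 in sound trauma and 1881, 1871 and 1884 in MSC treated animals, a difference of 0.16 (SE 0.13, LOO 0.10 to 0.26), which is the smallest of the up-list members. Specimen 10 was above all 3 MSC treated libraries. Itga11, a collagen receptor chain of fibroblasts, ranged from 371 to 676 and from 462 to 668, with a difference of 0.31 (SE 0.27) that was 0.15 without specimen 6 and 0.58 without specimen 10.

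The ADAM family includes active sheddases and catalytically inactive adhesion proteins, and the lists divided them. Adam17, the sheddase that releases TNF from the cell surface, had 450, 470 and 583 in sound trauma and 619, 584 and 657 in MSC treated animals, a difference of 0.31 (SE 0.14, LOO 0.24 to 0.43). Its groups did not overlap, but specimens 10 and 18 were separated only by 583 against 584. Adam9, another active sheddase, had 844, 576 and 650 in sound trauma and 937, 749 and 722 in MSC treated animals, a difference of 0.23 (SE 0.19, LOO 0.11 to 0.38), with specimen 6 inside the MSC treated range. Adamts9, which cleaves versican and aggrecan, ranged from 177 to 299 and from 263 to 299, a difference of 0.38 (SE 0.23) that was 0.26 without specimen 6 and 0.63 without specimen 10.

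Adam11, an inactive ADAM of neurons, had 824, 2753 and 585 in sound trauma and 450, 822 and 755 in MSC treated animals, a difference of -0.75 (SE 0.58, LOO -1.20 to -0.09). Specimen 8 held 3.34 times the level of the next library, and without it the difference was -0.09. Adam22, the neuronal receptor for LGI proteins at synapses, ranged from 295 to 1299 and from 277 to 439, with specimen 8 at 2.96 times the next library and a difference of -0.51 (SE 0.55) that was 0.13 without it and -0.94 without specimen 10. The neuron and cerebellum markers were highest in specimen 8 as well, at 35640 scaled counts against at most 8826 in any other library, and their part was not tested.

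Adamts10, which associates with fibrillin microfibrils, had 885, 1801 and 1126 in sound trauma and 957, 912 and 1206 in MSC treated animals, a difference of -0.26 (SE 0.27, LOO -0.49 to 0.03) that was 0.03 without specimen 8. Adamts16 had 13.9, 47.8 and 8.93 in sound trauma and 12.5, 12.3 and 3.88 in MSC treated animals, a difference of -1.02 (SE 0.73, LOO -1.50 to -0.35) that was -0.35 without specimen 8, -0.53 without specimen 20 and -0.64 with a pseudocount of 10. Adamts8 ranged from 22.3 to 44.9 and from 17.4 to 26.0, a difference of -0.51 (SE 0.35) that was -0.25 without specimen 8. Specimen 8 was the highest library for all 5 down-list ADAM and ADAMTS genes, and specimen 10 lay within the MSC treated range for each of them.

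Among the MMPs, Mmp25, a membrane-anchored protease of leukocytes, had 214, 279 and 328 in sound trauma and 394, 296 and 447 in MSC treated animals, a difference of 0.47 (SE 0.23, LOO 0.30 to 0.64). Only specimens 10 and 18 overlapped. Mmp19, a secreted protease that cleaves basement membrane components, had 218, 74.6 and 120 in sound trauma and 319, 147 and 143 in MSC treated animals, a difference of 0.59 (SE 0.48, LOO 0.21 to 0.99). Specimens 6 and 13 were highest in their groups, and the value was 0.22 without specimen 8 and 0.99 without specimen 6. Mmp11, a stromal protease, ranged from 83.2 to 169 and from 137 to 206, a difference of 0.44 (SE 0.30) that was 0.17 without specimen 8 and 0.68 without specimen 10.

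Mmp24, a membrane-type MMP of neurons that processes cadherins, had 192, 1362 and 37.5 in sound trauma and 52.98, 63.3 and 88.3 in MSC treated animals. Specimen 8 exceeded the next library 7.08 times, and specimen 10 was the lowest of all 6. Its difference of -1.68 (SE 1.19, LOO -2.92 to -0.35) was the most negative of the 52 members that passed the filter. It was -0.35 without specimen 8 and -2.92 without specimen 10. Specimens 8 and 6, in this order, were also the highest libraries for the neuron and cerebellum markers (35640 and 8826), whose part was not tested. Mmp17, which has a membrane anchor of the same kind as Mmp25, ranged from 39.3 to 201 and from 43.9 to 67.0, with specimen 8 the highest library and a difference of -0.54 (SE 0.59) that was 0.12 without it and -1.05 without specimen 10.

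The TIMPs stood in opposite lists. Timp1, an inducible inhibitor of most MMPs, had 125, 149 and 215 in sound trauma and 356, 186 and 177 in MSC treated animals, a difference of 0.51 (SE 0.34, LOO 0.19 to 0.73). Specimen 13 was the highest library, specimen 10 was above specimens 18 and 20, and the difference was 0.19 without specimen 13. Timp4, an inhibitor expressed in heart, brain and muscle, had 318, 515 and 73.3 in sound trauma and 208, 92.9 and 64.1 in MSC treated animals, a difference of -1.09 (SE 0.78, LOO -1.90 to -0.50). Specimens 6 and 8 were above all MSC treated libraries, specimen 10 was within their range, and the difference was -0.50 without specimen 8 and -1.90 without specimen 10. Specimen 13 was the highest MSC treated library for both inhibitors. These are the genes whose promoter windows are given above, with 1 CCAAT and 1 GC box match for Timp1 and none for Timp4. The window of the up-list gene Col4a4 also held neither, and a bearing of these letters on the lists was not tested.

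**Figure D5:**
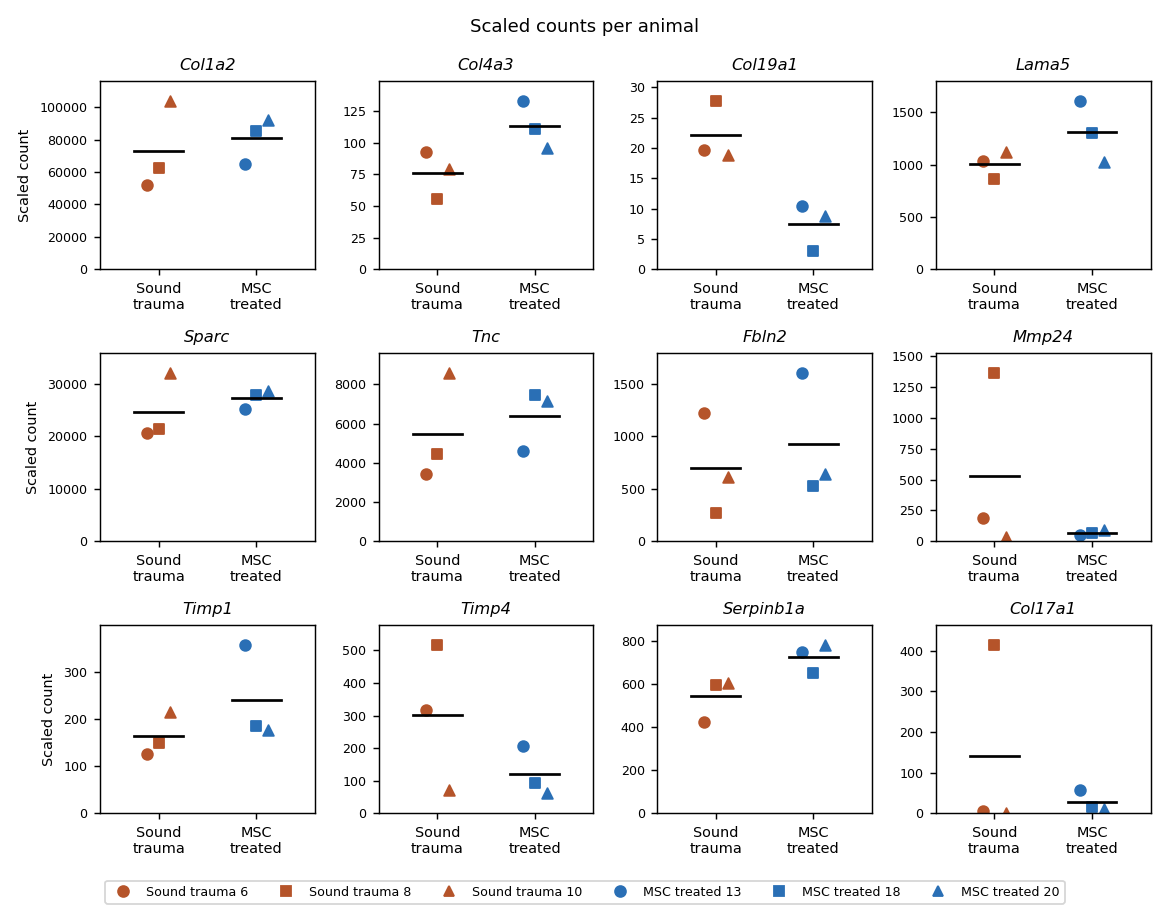
Scaled counts per animal for 12 matrix genes, with sound trauma in orange, MSC treated in blue, one symbol per animal and lines at the group means. Specimen 8 stands far above all other animals for Mmp24 (1362) and Col17a1 (413), specimen 10 is the highest library for Col1a2 (103767), and the groups are apart for Col4a3, Col19a1 and Serpinb1a.

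Clade B serpins are mostly intracellular inhibitors that protect leukocytes from their own granule proteases. Serpinb1a, an inhibitor of neutrophil elastase, had 424, 596 and 607 scaled counts in sound trauma and 748, 653 and 779 in MSC treated animals. Its groups did not overlap, with means of 542 ± 102 and 726 ± 65.7 (SD, n = 3) and a difference of 0.44 (SE 0.18, LOO 0.27 to 0.53) that was 0.27 without specimen 6. Serpinb9, the granzyme B inhibitor, had 163, 163 and 184 in sound trauma and 192, 208 and 223 in MSC treated animals, a difference of 0.29 (SE 0.15, LOO 0.24 to 0.35), again without overlap. The neutrophil gene Elane and the other leukocyte markers were lowest in specimens 6 and 8, as in the sums given above, and their part was not tested. All these markers came from the up-regulated list, as did both serpin genes.

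Serpinb1b, the closest relative of Serpinb1a, stood in the down-regulated list with 34.8, 26.8 and 3.57 in sound trauma and 0, 1.02 and 7.77 in MSC treated animals. These values come from 30, 28 and 4 reads against 0, 1 and 8, so the gene did not pass the filter and has no difference in the main fit. Without specimen 10 it passed the filter, and its difference was -3.60. Specimen 10 lay within the MSC treated range. Reads could be shared between such similar genes, and how they were assigned is not given in the sources used here. Serpinb11, another clade B gene of the down-regulated list, had 16.2, 156 and 41.1 in sound trauma and 29.1, 30.6 and 21.4 in MSC treated animals, a difference of -0.81 (SE 0.77, LOO -1.55 to 0.04). Specimen 8 was 3.79 times the next library, specimen 6 was the lowest of all 6, and the difference was 0.04 without specimen 8.

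Serpina3b, a secreted clade A serpin, had 16.2, 19.1 and 28.6 in sound trauma and 31.2, 37.8 and 36.9 in MSC treated animals. Its difference of 0.73 (SE 0.31, LOO 0.57 to 0.96) was the largest of the up-list members, at 14, 20 and 32 reads against 30, 37 and 38, and the groups did not overlap. Serpine2, a secreted inhibitor of thrombin and plasminogen activators, had 2525, 2989 and 3595 in sound trauma and 2909, 4202 and 3394 in MSC treated animals, a difference of 0.20 (SE 0.20, LOO 0.06 to 0.33), with overlap.

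Latent TGF-beta binding proteins hold TGF-beta in the matrix. Ltbp3 had 2095, 2012 and 2803 in sound trauma and 2602, 2650 and 2476 in MSC treated animals, a difference of 0.18 (SE 0.16, LOO 0.09 to 0.33), with specimen 10 the highest library. Ltbp4 of the down-regulated list had 1626, 752 and 1089 in sound trauma and 1224, 780 and 916 in MSC treated animals, a difference of -0.20 (SE 0.31, LOO -0.48 to 0.08) that was 0.08 without specimen 6. Specimen 6 was highest for Ltbp4 and specimen 8 lowest, and the groups overlapped for both genes. P4htm, a transmembrane prolyl hydroxylase of the endoplasmic reticulum, had 183, 349 and 113 in sound trauma and 138, 162 and 160 in MSC treated animals, a difference of -0.34 (SE 0.40, LOO -0.72 to 0.09) that was 0.09 without specimen 8.

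Library orders recurred across roles. In 9 members (among them Adam9, Mmp19, Ltbp4, Col5a3, Fbln2, Col15a1, Col4a3 and Col6a1), specimen 6 was the highest sound trauma library and specimen 13 the highest MSC treated library. That was 9 of 53 members, and the same order held for 19.3% of all tested genes. In 11 others (Adamts9, Col1a2, Sparc, Tnc, Itga11, Itgb2l, Lamc3, Col4a5, Serpina3b, Serpinb9 and Serpine2), specimen 10 was highest and specimen 13 lowest of their groups, 20.8% against 19.9%. Both orders were about as frequent among the members as among all tested genes. In 8 members (Adam11, Adam22, Adamts16, Mmp17, Mmp24, Col10a1, Col17a1 and Serpinb11), all from the down-regulated list, specimen 8 held more than 2 times the level of any other library. That share was 15.1%, against 5.27% of all tested genes. The members were selected on this contrast and the tested genes were not, so nothing is read from this excess.

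Of 100 other genes of the matrix, its receptors and its proteases, 30 had a symbol in the lists, 18 in the up-regulated and 12 in the down-regulated list, and limma gave none of them an unadjusted p below 0.05. The proteoglycan of basement membranes Hspg2 (perlecan) differed by 0.21 (SE 0.28, LOO -0.08 to 0.37), the matricellular protein Postn by 0.24 (SE 0.36, LOO -0.08 to 0.52) and the growth factor Tgfb1 by 0.33 (SE 0.28, LOO 0.11 to 0.65). The first 2 turned negative without specimen 8, and Tgfb1 was highest without specimen 10. The down-list genes included matrix genes of the brain, with Tnr (tenascin R) at -1.79 (SE 0.90, LOO -2.80 to -0.96), Reln (reelin) at -1.005 (SE 0.67, LOO -1.78 to -0.53), Bcan (brevican) at -0.89 (SE 0.66, LOO -1.62 to -0.45) and Ncan (neurocan) at -0.78 (SE 0.73, LOO -1.41 to 0.05). All 4 were closest to 0 without specimen 8 and most negative without specimen 10, and Ncan turned positive without specimen 8. Tnr had 251, 623 and 47.4 scaled counts in sound trauma and 38.4, 84.8 and 53.4 in MSC treated animals. For Tnr, as for Mmp24 and Timp4, specimens 8 and 6 were the highest libraries in that order.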

How the data were processed

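RNA-seq libraries of 6 cochleae were used, 3 per group, with groups taken from the labels. The authors trimmed and aligned reads against C57BL/6NJ with the AIR software, and deposited a TMM-scaled signal (reads per gene times 1 factor) for each library. The counting tool and its use of strand are not given in the sources used here. Every deposited value (100%, tolerance 1e-06) was a whole multiple of 1 step per library, from which reads were recovered. The authors also deposited an FDR, a log2 fold change and mean FPKM values for their lists, which were not used.

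Genes passing filterByExpr (15970) were fitted with limma-trend (limma 3.58.1, R 4.3.3) on log2(scaled count + 1) with Benjamini-Hochberg adjustment. The design had named limma for scaled values and edgeR for raw counts. Alternatives were edgeR 4.0.16 quasi-likelihood, DESeq2 1.42.0 and limma-voom on recovered reads, other scalings (total reads, upper quartile, median of ratios), pseudocounts of 0.1 and 10, every gene with a read, a minimum of 10 reads per library, and each library left out. The fits were tested on simulated data. Exon lengths came from GENCODE M21 (all 53 matched), promoter windows from RefSeq.

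Members and gene lists were chosen with earlier results of these data known. Values in every library are given for up to 3 members of highest mean and the member of widest sound trauma range in each role, for Serpinb1a and Serpinb1b, Timp1 and Timp4, and for every member whose groups do not overlap. Other members are given by ranges, and 1 member is not reported here.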

Additional observations from a re-analysis of the deposited data

How the results depend on the processing

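No member had an adjusted p under 0.05 in limma under any alternative, in edgeR, DESeq2 or limma-voom. The count of members with a higher value in MSC treated animals was 37, and between 35 and 40 with any 1 library left out. The up-list median of 0.32 was between 0.21 and 0.47 with any 1 library left out, and the down-list median of -0.51 between -0.94 and -0.09. Against specimen 10 alone, an alternative chosen after seeing the data, the up-list median was 0.024 and 26 members were higher, and 15 of 38 genes given with all values changed sign, and the lone library was assumed to vary like the others. The down-list median was -0.85 in edgeR and in DESeq2. These tools also gave -2.97 for Mmp24 and -1.40 for Serpinb11, against -1.68 and -0.81 in limma. Scaling by total reads moved the median of all genes to 0.073 and gave 6083 lower and 9887 higher genes, against 7946 and 8024, and left the sign of all 38 genes as it was. With 3 animals a group and the few reads of Col19a1, Serpina3b and Serpinb1b, small differences are not resolved at this depth. No paired analysis was possible because the specimen numbers differ between the groups.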

Other observations

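Has2, a hyaluronan synthase that stood in the up-regulated list but did not pass the filter on reads, had scaled counts of 12.7, 6.69 and 2.68 in the sound trauma animals (specimens 6, 8 and 10). The MSC treated animals (13, 18 and 20) had 84.2, 5.11 and 7.77. Specimen 13 alone was high, on 81 reads against at most 11 in any other library, and the groups overlapped. Kera (keratocan), a proteoglycan of the down-regulated list, had 166, 77.4 and 104 in sound trauma and 67.5, 23.5 and 75.7 in MSC treated animals, and its groups were apart by the step from 75.7 to 77.4. Of the 29 other matrix genes tested, Kera was the 1 lower gene without overlap (background 2.92% of all tested genes), and 2 were higher without overlap (background 4.25%). These were Plat, a plasminogen activator, with 358, 419 and 423 against 480, 594 and 455, and the protease inhibitor Reck, with 337, 388 and 430 against 436, 481 and 448. The lists were selected on this contrast, so nothing is read from these counts.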
